A study of Homo sapiens with 2 samples.

Results

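The 10 genes described here are transcription factors, coactivators, inhibitory kinases and target genes of the YAP/TAZ-TEAD system, measured in A4573 cells. They were chosen by gene symbol, with earlier results of these data known. The array held 15 probes for them among 47323 probes and 20046 named genes. They were the target genes CCN1, CCN2, ANKRD1 and AMOTL2, the kinase genes LATS1 and LATS2, the coactivator genes YAP1 and WWTR1 (which encodes TAZ), and the factor genes TEAD1 and TEAD4. A4573 is an established Ewing sarcoma line, and this tumour arises in bone or soft tissue, mostly from an EWSR1 fusion gene. The comparison asks how a radiation-adapted A4573 culture, whose description reads 4 Gy, differed from the wild-type culture. How often and how long before harvest the cells were irradiated, and whether they are 1 clone, is not stated in the labels. Total RNA of each culture was read on 1 Illumina bead array, so nothing was tested between the cultures and all differences are descriptions of 1 pair of arrays.

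In the Hippo pathway, a kinase cascade ends in LATS1 and LATS2, which phosphorylate the coactivators YAP and TAZ and keep them out of the nucleus. Unphosphorylated YAP and TAZ enter the nucleus, where they have no DNA-binding domain of their own and act through TEAD factors. Cell spreading, a stiff matrix and actin tension favour nuclear YAP and TAZ, and CCN1, CCN2 and ANKRD1 are widely used readouts of their activity. Since this control acts largely on the proteins, the level of the YAP1 or TEAD4 transcript is no measure of the activity of its product.

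TEAD factors bind the short motif CATTCC, which reads GGAATG on the opposite strand. It was searched on both strands in the 250 bases before RefSeq gene starts (build GRCh38.p14), and entries were held for 7 of the 10 genes. CCN1, TEAD1 and TEAD4 were not analysed here. The stretches before CCN2 and ANKRD1 are shown because the first gene was lower in the adapted array while the second was detected in neither array. AMOTL2 has 2 listed starts, and 30 bases around its single match are shown. Capitals mark the motif in the gene's own direction, 5′ to 3′.
CCN2, chr6:131951373-131951622, minus strand: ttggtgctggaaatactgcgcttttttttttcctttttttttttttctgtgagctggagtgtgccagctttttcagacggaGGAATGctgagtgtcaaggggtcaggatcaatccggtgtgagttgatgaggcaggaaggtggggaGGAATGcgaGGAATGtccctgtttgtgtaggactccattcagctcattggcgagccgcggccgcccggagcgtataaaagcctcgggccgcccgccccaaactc
ANKRD1, chr10:90921088-90921337, minus strand: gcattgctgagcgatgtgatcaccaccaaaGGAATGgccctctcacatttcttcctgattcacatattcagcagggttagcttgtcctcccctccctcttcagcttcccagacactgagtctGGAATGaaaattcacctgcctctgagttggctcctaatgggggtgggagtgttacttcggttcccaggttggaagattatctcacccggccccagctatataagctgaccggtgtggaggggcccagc
AMOTL2, chr3:134374499-134374528, minus strand: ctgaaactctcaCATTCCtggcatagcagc

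The CCN2 stretch held 3 matches, which began 169, 104 and 95 bases before the start, and the nearer pair lies close together. ANKRD1 held 2 matches, beginning 220 and 128 bases before its start. YAP1 held 1, at 162 bases. AMOTL2 held 1 match, 69 bases before one start, and 0 before the other. The windows of LATS1, LATS2 and WWTR1 held 0. Both WWTR1 windows lie inside the span of that gene, so the bases before its outermost start were not searched. Of all 35116 windows of this length, 11.9% held at least 1 match and 0.0826% (29 windows) held at least 3. The AP-1 motif TGANTCA occurred once before ANKRD1 and once before a LATS1 start, against 6.57% of all windows, and overlapped no TEAD-type match. The CArG box of serum response factor occurred in none of the members' windows and in 1.16% of all windows. These are matches of letters, and binding was not measured.

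**Figure D1:**
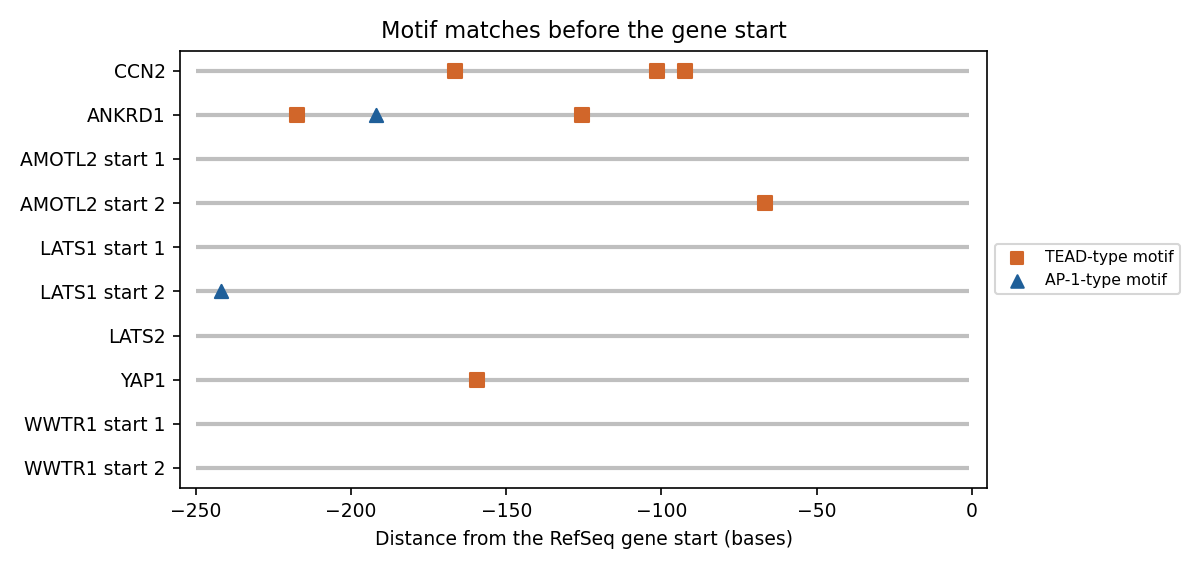
Positions of motif matches in the 250 bases before the RefSeq starts of 7 genes, on a horizontal axis of bases from the start. Squares mark CATTCC on either strand and triangles the AP-1 motif. The CCN2 line has 3 squares, the ANKRD1 line 2, and AMOTL2 and YAP1 have 1 each.

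The wild-type array detected 17903 probes (37.8%) and the adapted array 16712 (35.3%) at a detection p of at most 0.01. The dimmest detected probes read 152.0 and 158.2, and median intensities were 139 and 140, so a median probe lay under the limit. All 8 Ewing sarcoma markers looked at, among them CD99 and NKX2-2, were detected in both arrays. Their summed intensities, before normalisation and with background included, were 28303 in wild-type and 24962 in adapted cells. The brightest, CCND1, read 14496 and 9693, a log2 difference of -0.65. At 1.5-fold CCND1 alone was lower, and 2 markers were higher, LIPI (1.82) and FLI1 (0.81). Of 9 fibroblast markers, 8 were detected in each array, with PDGFRA below the limit in both. The like sums over all 9, PDGFRA included, were 4053 and 4414. Single markers moved both ways: on the log2 scale DCN differed by 1.97, COL3A1 by 0.92 and LUM by 0.78, against -1.17 for THY1, -1.16 for PDGFRB and -0.74 for COL1A1. Of 6 leukocyte markers, 3 were detected in each array (CD14, LCP1 and CD68). The sums over all 6, undetected markers included, were 1851 and 1342. Most of that gap was LCP1, at 697.8 and 230.3, a difference of -2.49. The defining markers PTPRC, CD3E and ITGAM were not detected. The part of other cells in the results was not tested. In bulk RNA, fewer cells with a transcript and less of it per cell cannot be told apart.

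Of the 10 genes, 4 were detected in both arrays (CCN2, AMOTL2, YAP1, TEAD4), 1 in the wild-type array alone (CCN1) and 5 in neither (ANKRD1, LATS1, LATS2, WWTR1, TEAD1). The secreted targets CCN1 and CCN2 were lower in the adapted array, by more than 2-fold under the main setting. For CCN2 this held at the brightest probe (2.51-fold) but not at the second (1.86-fold). The CCN1 bound was 2.22-fold under the main setting and 1.70-fold with an offset of 50. AMOTL2, YAP1 and TEAD4 were also lower but by less than 1.5-fold. No member was at least 1.5-fold higher. Under the main setting CCN2 and the CCN1 bound were further from 0 than the measurable coactivator and factor genes. Without background correction the CCN1 bound (-0.43) lay near TEAD4 (-0.37). The sign of CCN1 was fixed by its detection in the wild-type array alone.

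CCN2, formerly CTGF, encodes a matricellular protein that binds integrins and growth factors. Its first probe read 322.2 in wild-type and 203.8 in adapted cells, before normalisation. Its second probe read 261.4 and 198.3. Both probes were lower in the adapted array and detected in both, with a detection p of 0 in each. After background correction and quantile normalisation the first probe gave log2 values of 7.80 and 6.47, a difference of -1.33, or 2.51-fold lower. The second gave 7.28 and 6.39, a difference of -0.89, or 1.86-fold lower, so the probes shared a direction but not a size. Without background correction the differences were -0.74 and -0.45. Of 9828 genes detected in both arrays, 182 (1.85%) had a difference as low as that of the first CCN2 probe or lower.

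CCN1, formerly CYR61, is the closest relative of CCN2 among these genes and likewise encodes a secreted matricellular protein. Its 1 probe read 209.8 in wild-type cells, with a detection p of 0, and 131.8 in adapted cells, with a detection p of 0.384. The adapted value was therefore not above background. The measured log2 values were 6.64 and 4.65. Against the lowest value of a detected probe on the adapted array, 5.49, CCN1 was at least 2.22-fold lower. The bound was 1.35-fold without background correction, 2.86-fold with a detection limit of 0.05 and 3.03-fold in the authors' processed values, so its size varied with the processing. The authors' processed intensities were 84.9 and 2.4 for CCN1, and 217 and 73.1 for the first CCN2 probe.

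AMOTL2, an angiomotin-like scaffold that binds YAP and holds it in the cytoplasm, is both a target and an inhibitor of the pathway. It read 190.1 in wild-type and 177.7 in adapted cells and was detected in both. The difference was -0.30 on the log2 scale, or 1.23-fold lower (-0.12 without background correction). ANKRD1 encodes a stress-responsive ankyrin repeat protein of muscle and other cells. It read 123.2 and 132.7, with detection p of 0.669 and 0.348, so it was not well above background in either culture and no fold is given.

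The kinase genes gave no measurable level. LATS2, itself a YAP target that feeds back on the pathway, read 143.6 in wild-type and 139.8 in adapted cells (detection p of 0.0545 and 0.145). The first LATS1 probe read 117.2 and 123.8, and the second 128.7 and 124.3, and their order between the arrays was opposite. Every LATS1 detection p was at least 0.421.

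Of the coactivators, YAP1 was well above background and WWTR1 was not. YAP1 read 705.9 in wild-type and 699.8 in adapted cells before normalisation, nearly the same intensity. After normalisation its log2 values were 9.33 and 9.09, a difference of -0.24, or 1.18-fold lower. With median scaling in place of quantile normalisation the difference was -0.01. That scaling moved the median of all genes to 0.17 (0.01 in the main setting), and relative to this shift YAP1 stood at -0.17. WWTR1 read 121.7 and 131.2, with detection p of 0.726 and 0.403.

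Of the TEAD genes, TEAD4 was measured by 1 of its 3 probes. That probe read 631.8 in wild-type and 553.6 in adapted cells. Its log2 values were 9.14 and 8.68, a difference of -0.46, or 1.37-fold lower (-0.23 with median scaling, or -0.40 relative to the shift). The second TEAD4 probe read 146.2 and 144.8, and the third 151.2 and 143.1. The third missed the detection limit narrowly in wild-type cells, with a detection p of 0.0104. Both TEAD1 probes lay in the background, at 122.4 and 126.2 for the first and 121.0 and 137.6 for the second.

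The 9 member probes detected in neither array had raw differences between -8.1 and 16.6 intensity units, and 5 of them were higher in the adapted array. Over the 28378 probes of the whole array detected in neither, the middle 95% of these differences ran from -18.3 to 21.0, which took in all 9. A change of WWTR1, TEAD1, LATS1, LATS2 or ANKRD1 was not detectable with these probes, which does not show that the genes are silent.

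**Figure D2:**
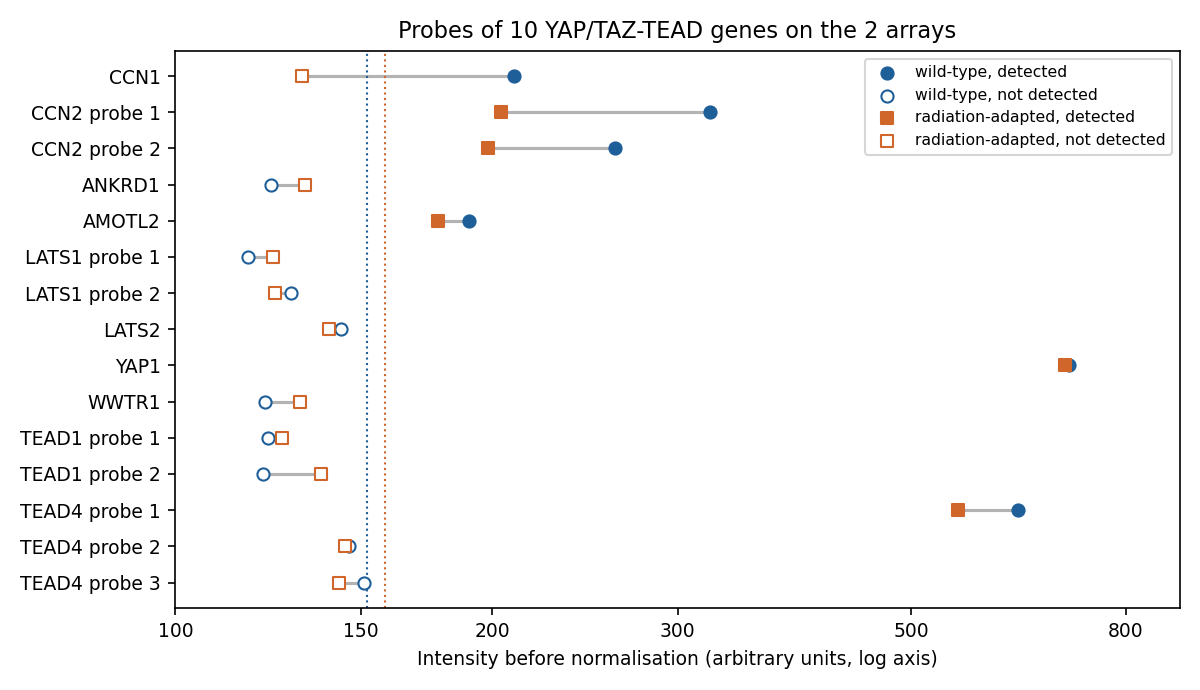
Intensity of each of the 15 probes before normalisation, on a log axis, in wild-type (circles) and radiation-adapted cells (squares). Filled symbols were detected at p of at most 0.01, and dotted lines mark the dimmest detected probe of each array (152.0 and 158.2). CCN1 falls from 209.8 to 131.8, below the adapted line, whereas the YAP1 symbols nearly coincide.

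A count at 1.5-fold was set beside the whole array. Of 11296 genes detected in at least 1 array, 12.3% (1385) were at least 1.5-fold lower in adapted cells and 11.8% (1334) higher. With median scaling these counts were 1020 and 2157. Of the 5 measurable members 2 were lower (CCN1 and CCN2) and 0 higher. At 2-fold, 4.43% of all genes were lower and 2.76% higher, and the same 2 members were lower and 0 higher. CCN1 entered only through the wild-type array, where it was high, so it had to be lower, and 5 genes are too few to set their share against the background. The median measured difference of the 5 members was -0.46, beside 0.01 over all genes. It includes CCN1, whose sign was fixed in the same way, so the median is a description only. The quartiles over genes detected in both arrays were -0.29 and 0.35. TEAD4 lay below the lower quartile, AMOTL2 at it and YAP1 just above it, with 16.9%, 24.7% and 28.4% of genes as low or lower.

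No replicate array gives the error of these differences. The disagreement between probes of the same gene gives a lower guide. Over 2326 genes with 2 probes detected in both arrays, the gap between the 2 brightest probes gave an SD per probe of 0.28. In 579 of these genes the 2 brightest probes differed in sign. This SD pools probes of all intensities, so it is not matched to dim probes such as those of CCN2 and AMOTL2. The values of AMOTL2 (-0.30) and YAP1 (-0.24) were about as large as that scatter. TEAD4 (-0.46) exceeded it by less than a factor of 2, and CCN2 by several times with both probes. The scatter between cultures was not measured.

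**Figure D3:**
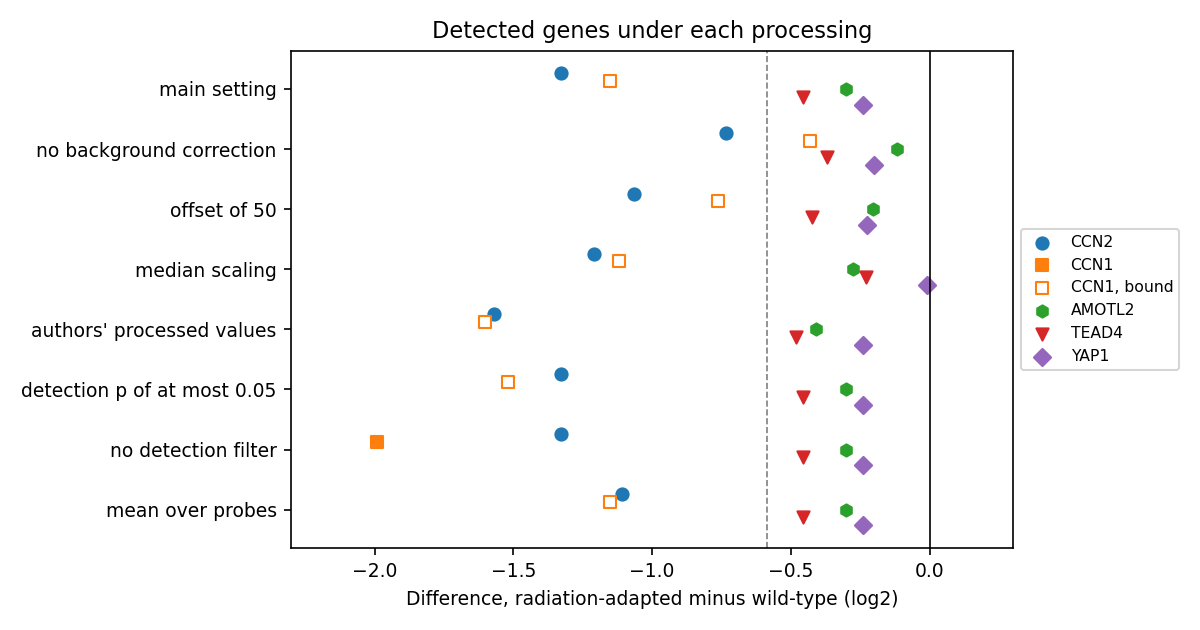
Log2 difference, radiation-adapted minus wild-type, of the 5 measurable genes under the main setting and 7 alternatives. Open squares are bounds for CCN1 and the dashed line marks 1.5-fold lower. CCN2 stays left of the line throughout, from -1.57 to -0.74, and the CCN1 bound crosses it without background correction (-0.43).

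The other genes of the pathway were taken from lists of 67 genes, of which 66 had a named probe and 48 were detected. Of these 48, 7 (14.6%) were at least 1.5-fold lower and 4 (8.33%) higher, beside 12.3% and 11.8% of all genes. Without background correction the counts were 5 and 0, and with median scaling 6 and 8. The median difference was -0.01.

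Among upstream kinases and their adaptors, 13 of 15 genes were detected, 2 lower and 1 higher. The scaffold WWC1 (KIBRA), which brings LATS kinases into contact with their activators, read 308.8 in wild-type and 180.8 in adapted cells, a difference of -1.64, or 3.11-fold lower. Its paralogue WWC3 read 554.5 and 352.1, a difference of -1.09, or 2.12-fold lower. The kinase TAOK1 read 147.4 and 191.1 and was detected in adapted cells alone (detection p of 0.0299 in wild-type cells), at least 1.93-fold higher. Without background correction these values were -0.84 for WWC1, -0.81 for WWC3 and 0.32 for the TAOK1 bound. The core kinases STK3 (MST2) and STK4 (MST1) differed by -0.19 and 0.23, their adaptor SAV1 by 0.30 and the LATS cofactors MOB1A and MOB1B by 0.52 and 0.23, although a second MOB1A probe gave -0.13. The wild-type and adapted intensities were 489.8 and 498.4 for STK3, and 1348 and 1872 for STK4. NF2, the merlin gene, was detected in neither array.

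Among junction and polarity genes, 10 of 15 were detected, 1 lower and 2 higher. The giant cadherin FAT1 read 508.2 in wild-type and 354.9 in adapted cells, with differences of -0.91 and -0.52 at its detected probes. In the authors' processed values FAT1 was under 1.5-fold (-0.55). The LIM protein AJUBA, which restrains LATS kinases, read 183.4 and 264.0, a difference of 1.01, or 2.02-fold higher (0.48 without background correction). The polarity scaffold SCRIB read 419.2 and 675.5, a difference of 0.64, but its other detected probe gave -0.38. AMOT, a relative of AMOTL2, read 400.0 and 408.2 and differed by -0.17. AMOTL1 was detected in neither array.

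Both remaining TEAD genes were detected in both arrays. TEAD2 read 1603 in wild-type and 1655 in adapted cells, a difference of -0.23 after normalisation, and TEAD3 read 161.9 and 166.6, a difference of 0.10. Of the VGLL cofactors, which compete with YAP for TEAD factors, VGLL4 alone was detected and differed by -0.05. Among genes of YAP retention and turnover, 9 of 10 were detected. Only CSNK1E, a casein kinase that primes YAP for degradation, passed 1.5-fold by its brightest probe (-0.66, or 1.58-fold lower). That call was lost with median scaling (-0.41) and in the authors' processed values (-0.57). The 14-3-3 genes, whose proteins hold phosphorylated YAP in the cytoplasm, ranged from -0.36 for YWHAE to 0.54 for YWHAG by their brightest probes, while second probes of YWHAB and YWHAG gave 1.05 and 0.70.

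Among 17 other genes commonly listed as YAP/TAZ targets, 12 were detected, 4 of them in wild-type cells alone and 1 in adapted cells alone. At 1.5-fold, 3 of the 12 were lower and 1 higher, beside 12.3% and 11.8% of all genes, and AXL and F3 among these were detected in 1 array only. The growth factor binding protein IGFBP3 read 396.5 in wild-type and 202.0 in adapted cells, a difference of -1.82, or 3.52-fold lower, and its second probe gave -1.89. The receptor tyrosine kinase AXL read 192.3 and 149.0 and was at least 1.80-fold lower, since it was detected in wild-type cells alone (detection p of 0.0429 in adapted cells). ARHGEF17 read 294.1 and 230.4, a difference of -0.76. In the opposite direction, tissue factor, F3, read 139.7 and 178.5 and was at least 1.62-fold higher, detected in adapted cells alone. Without background correction only IGFBP3 stayed past 1.5-fold (-1.07), with AXL at -0.30, ARHGEF17 at -0.43 and F3 at 0.22. The median of the 12 was -0.46 as measured and -0.11 with the genes detected in 1 array at their bound. The genes detected in 1 array alone had their sign fixed by that, and they weigh on the median as measured. Of the 7 detected in both arrays, 4 had values below 0 and 3 above. Among those near 0, the ASAP1 probe read 7636 and 9621, a difference of 0.21, PTPN14 differed by 0.09 and 0.65 at its detected probes and GADD45A by -0.16 and 0.18.

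Of the other CCN family genes, CCN3 (NOV) alone was detected. It read 243.8 in wild-type and 319.2 in adapted cells, a difference of 0.51, opposite in sign to CCN1 and CCN2. CCN4, CCN5 and CCN6 were in the background of both arrays.

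**Figure D4:**
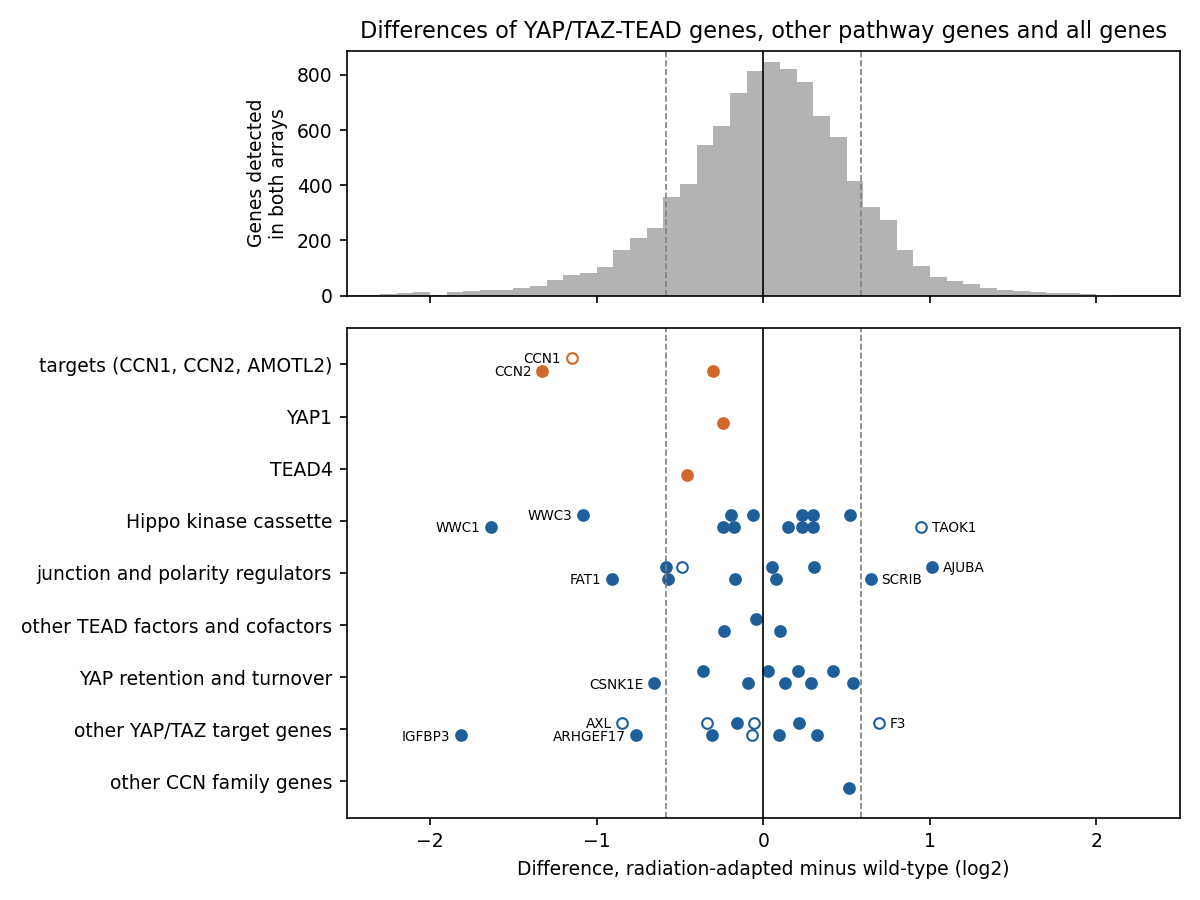
Top, number of genes detected in both arrays by log2 difference (radiation-adapted minus wild-type), with 21 genes beyond the axis not shown. Bottom, the measurable members (orange) and other pathway genes (blue) by list, where open symbols are bounds and dashed lines mark 1.5-fold. CCN1 and CCN2 lie left of the line, and the pathway lists scatter on both sides of 0.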

How the data were processed

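Total RNA of 2 A4573 cultures was hybridised to 1 Illumina bead array each, after biotin labelling with the TotalPrep kit, per the labels' protocols. Groups came from the cell line label. Per the file headers, the deposited table gives an average intensity before normalisation and a detection p-value per probe. A second deposited table holds the authors' processed intensity on a linear scale. Its columns share a median of 10.6 and 27.7% of values lie below 0, and the method is not given in the sources used.

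Intensities were background-corrected, quantile-normalised and put on the log2 scale with neqc (limma 3.58.1, R 4.3.3, offset 16); negative-control levels were inferred from the detection p. A probe was detected at p of at most 0.01, and the brightest probe detected in at least 1 array stood for its gene. A gene detected in 1 array only was given a bound against the higher of its own value and the lowest detected value of the dim array. The offset draws differences of dim probes towards 0. Platform annotation gave 30113 of 47323 probes 1 gene symbol and 8 probes several, and left 17202 unnamed here; gene IDs matched RefSeq for 30074. Each group has 1 array, so differences carry no p-value, and the number of arrays limits the precision. Named were all 10 members, other pathway genes at least 1.5-fold apart, their paralogues and, picked after their values were seen, further pathway genes with small differences. The members and lists were chosen with earlier results of these data known. The normalisation was tested on simulated arrays in which only clearly detected probes were changed. That test does not cover dim probes such as those of CCN1 and AMOTL2, and its outcome is not given here.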

Additional observations from a re-analysis of the deposited data

How the results depend on the processing

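There were 7 alternatives: no background correction, an offset of 50, median scaling, the authors' processed values (floor of 16), a detection p of 0.05, no detection filter, and the mean over probes. The authors' values differ in background, normalisation and floor together. Of 63 recomputed counts and medians, 50 stayed close to the main value. Without background correction 1 member was at least 1.5-fold lower (CCN2), beside 2 in the main setting; other pathway genes at least 1.5-fold higher fell from 4 to 0; other targets counted 1 lower and 0 higher, beside 3 and 1; and all genes counted 656 lower and 479 higher. With an offset of 50, all genes counted 877 higher and other targets 0 higher, and the mean over probes also left 0 targets higher. With median scaling, 8 pathway genes and 2157 of all genes were higher. Without a detection filter, 12 pathway genes and 7 other targets were lower, more genes being counted and none held to a bound. The causes of the other shifts were not tested. The members' median ran from -0.48 to -0.20, the latter over all 10 genes without a filter, of which 5 were detected in neither array. All 112 values of 16 single genes kept their sign, which was largely fixed in advance. These genes were the measurable members and the pathway genes chosen for passing 1.5-fold in the main setting. A bound cannot cross 0, and several alternatives quantile-normalise the same ranks. Leaving out an array was not possible, and the bound of CCN1 ran from 1.35-fold to 3.03-fold. No paired analysis was possible because each group held 1 array. Signal near background limits 5 of the 10 genes.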
